A study of Mus musculus with 12 samples.

Results

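The activity-regulated effector genes of neurons, 10 genes in all, were examined in the RNA of mouse hippocampal neurons, out of 27179 genes listed in the deposited counts. They were chosen by name, as *Arc*, *Bdnf*, *Homer1*, *Vgf*, *Scg2*, *Nptx1*, *Nptx2*, *Dusp1*, *Rheb* and *Pcsk1*, and all 10 were found by their Entrez identifiers and were among the 14185 genes with enough counts to be tested. The primary neurons came from C57BL/6 pups by the sample labels, and from C57BL/6 and FVB pups of postnatal day 0 by the study's methods, and were kept for 17 or 18 days on Transwell membranes, whose pores let neurites (axons and dendrites) grow to the lower face while the somas stay above. The groups were somas and neurites of control neurons (Ctrl, which received the solvent DMSO) and somas and neurites of neurons given 10 μM of the proteasome inhibitor MG132 for 7 h, with 3 libraries in each. None carried an engineered allele.

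Synaptic activity raises calcium in a neuron, and calcium signalling through kinases and transcription factors such as CREB, SRF and MEF2 turns on a first wave of genes. Some of these encode transcription factors, and others encode proteins that act directly at synapses: scaffolds, secreted factors and signalling regulators, here called effectors. In the hippocampus these effectors are known for their part in synaptic plasticity and in learning. MG132 stops the proteasome from degrading ubiquitinated proteins, so the question here was how the mRNAs of these effectors were distributed between somas and neurites and how their levels differed after proteasome inhibition.

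The cAMP response element (CRE, letters TGACGTCA), to which CREB binds, is a textbook feature of several of these promoters, and the windows that hold it are shown for that reason. RefSeq promoter windows (GRCm38.p6, 250 bases before to 50 bases after a start) were matched to 6 of the 10 genes, giving 13 windows: 7 of *Bdnf*, 2 of *Homer1*, and 1 each of *Scg2*, *Dusp1*, *Rheb* and *Pcsk1*. Capitals mark TGACGTCA and the shorter TGACG, which is contained in it. The windows of *Dusp1* (chr17:26508423-26508722, minus strand), *Scg2* (chr1:79439977-79440276, minus strand) and *Pcsk1* (chr13:75089607-75089906, plus strand) hold the full element, and that of *Rheb* (chr5:24842312-24842611, minus strand), shown for contrast, holds only the short form.
Dusp1: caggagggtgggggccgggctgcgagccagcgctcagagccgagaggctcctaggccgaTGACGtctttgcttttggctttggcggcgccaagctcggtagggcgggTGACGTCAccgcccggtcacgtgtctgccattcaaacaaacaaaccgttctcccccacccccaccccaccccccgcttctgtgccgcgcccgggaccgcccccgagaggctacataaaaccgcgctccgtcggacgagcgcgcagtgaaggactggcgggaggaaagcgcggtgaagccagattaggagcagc
Scg2: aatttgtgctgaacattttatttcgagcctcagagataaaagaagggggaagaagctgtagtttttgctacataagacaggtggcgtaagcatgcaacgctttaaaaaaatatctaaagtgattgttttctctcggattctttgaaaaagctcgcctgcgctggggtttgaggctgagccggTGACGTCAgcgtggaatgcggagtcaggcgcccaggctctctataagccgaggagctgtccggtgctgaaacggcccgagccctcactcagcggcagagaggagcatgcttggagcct
Pcsk1: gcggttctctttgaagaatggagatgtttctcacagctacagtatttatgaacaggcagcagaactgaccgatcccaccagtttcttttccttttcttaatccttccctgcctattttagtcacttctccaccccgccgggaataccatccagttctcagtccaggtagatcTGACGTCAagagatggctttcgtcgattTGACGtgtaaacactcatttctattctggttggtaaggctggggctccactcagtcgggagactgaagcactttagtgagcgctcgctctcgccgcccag
Rheb: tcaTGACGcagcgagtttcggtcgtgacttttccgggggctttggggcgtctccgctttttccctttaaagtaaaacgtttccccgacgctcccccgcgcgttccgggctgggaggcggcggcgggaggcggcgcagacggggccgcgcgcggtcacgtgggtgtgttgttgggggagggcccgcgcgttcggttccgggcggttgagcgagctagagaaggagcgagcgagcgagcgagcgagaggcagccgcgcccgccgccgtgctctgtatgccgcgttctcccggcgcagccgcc
Counted from the start, with negative positions before it, the first base of the element lay at -143 in *Dusp1*, -68 in *Scg2* and -78 in *Pcsk1*. Searched on both strands, TGACGTCA was present in 3 of the 13 windows and in 1.79% of 32851 RefSeq promoter windows of the same length. TGACG was present in 6 of the 13, 1 in each of the 6 genes, and in 20.8% of all windows. The CArG box, to which SRF binds, was in 0 of the 13 windows and in 1.63% of all, and TATAAA was in 0 of the 13 and in 13.6% of all. The inverted heat shock pair GAANNTTC was in 1 window of *Bdnf* and 1 of *Homer1* (7.86% of all windows), and TGANTCA, the AP-1 site, in 1 of *Bdnf* (7.81% of all). These matches describe letters only.

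Counts on genes ranged from 4247610 to 22166347 per library (median 7841750.5), the 10 genes together took 0.0223 to 0.144% of them, and mitochondrial genes took 9.78 to 29.2%. The lowest counts behind the values were 1 for *Pcsk1* and 4 for *Dusp1*, both in Ctrl neurites replicate 1. Neuronal markers (*Rbfox3*, *Map2*, *Tubb3*, *Snap25*, *Syt1*, *Slc17a7*, *Gad1*, *Gad2*) were all detected in every library, and their summed level, in CPM (read counts relative to the library's size, scaled with TMM factors), was 1025 to 1538 in Ctrl somas, 899.5 to 1642 in Ctrl neurites, 842 to 1329 in MG132 somas and 818 to 1445 in MG132 neurites. The cultures held other cells as well. The summed level of 7 astrocyte markers, all detected in every library, was 4598 to 5680 CPM in Ctrl somas, 20795 to 25749 in Ctrl neurites, 2438 to 3158 in MG132 somas and 9639 to 19714 in MG132 neurites. For 7 oligodendrocyte lineage markers, also all detected, it was 1390 to 5952, 4940 to 21729, 469 to 5523 and 2826 to 15748 CPM in the same order. For 6 microglial markers it was 505 to 619, 507 to 1001, 124 to 217 and 76.7 to 170.4 CPM, and for 5 endothelial and mural markers, with *Cldn5* at 0 in every library outside Ctrl somas, 69.6 to 93.7, 21.7 to 32.5, 19.9 to 25.2 and 13.1 to 15.3 CPM. The astrocyte sum did not overlap between the fractions or between the treatments, and the microglial sum did not overlap between the treatments in either fraction. The part of these cells in the results that follow was not tested. In such bulk RNA, fewer cells of a type and less RNA per cell cannot be told apart. The labels do not say that the replicates were separate cultures, so the p-values measure the spread between these libraries, which may be technical.

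Per kilobase of exon, the 10 genes spanned a wide range of levels. The length used was that of all GENCODE exons of a gene merged. For *Rheb* it was 7721 bases, where the longest transcript has 4046. For *Homer1* it was 11976 against 5713, while for *Scg2* both are 2515. The order below holds for the merged lengths, and transcript lengths were not tried. In Ctrl somas *Scg2*, which encodes the granule protein secretogranin II, was highest at 121.9 ± 71.3 CPM per kb (SD, n = 3), followed by *Vgf* at 35.1 ± 18.5, *Nptx1* at 23.0 ± 5.25, *Bdnf* at 13.0 ± 10.1, *Nptx2* at 6.25 ± 2.61, *Rheb* at 5.54 ± 1.31, *Homer1* at 4.23 ± 1.12, *Arc* at 3.02 ± 2.45, *Pcsk1* at 2.15 ± 1.20 and *Dusp1* at 1.02 ± 0.84. Only *Scg2* and *Vgf* were neighbours in this order whose libraries did not overlap, so the neighbours further down could not be ordered. The same comparison separated 2 of 9 neighbouring pairs in Ctrl neurites and in MG132 somas, and 3 in MG132 neurites. With these lengths *Scg2* was the highest in each of the 4 groups, with no overlap with the next gene. A shorter length would raise *Rheb* against *Scg2*, so this order may not hold in MG132 neurites. In MG132 neurites *Rheb* came next, at 19.8 ± 0.0512 CPM per kb, also apart from the gene below it, and *Pcsk1* was the lowest in both MG132 groups, without overlap. *Arc*, at 21.0 ± 10.8 CPM per kb in MG132 somas, overlapped both of its neighbours there.

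**Figure D1:**
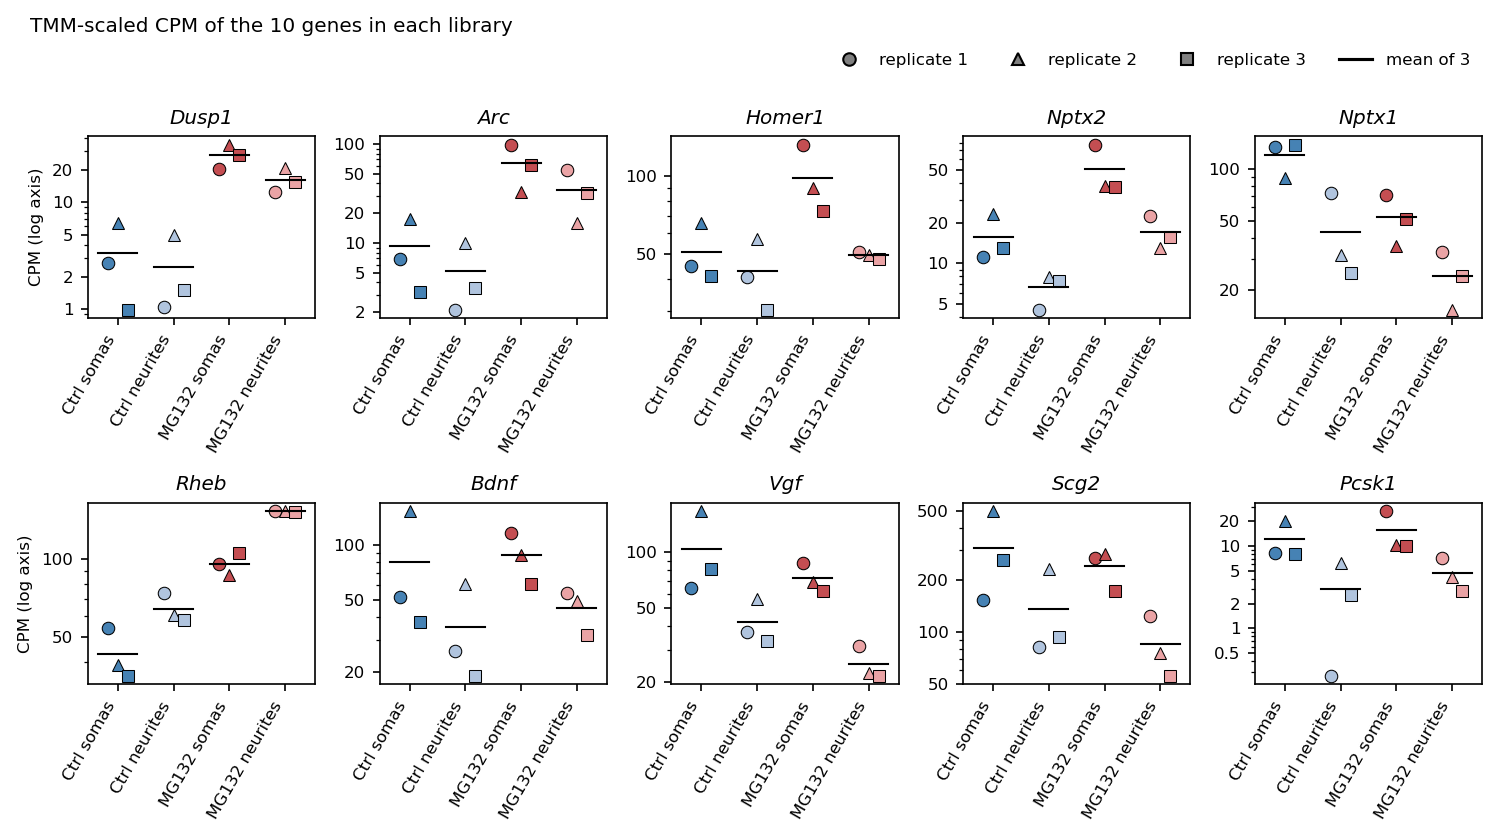
TMM-scaled CPM (log axis, a separate range for each gene) of the 10 genes in the 12 libraries, by group, with marker shape for the replicate number and a line at the mean of 3. *Arc*, *Dusp1*, *Nptx2* and *Rheb* are higher in every MG132 library than in any Ctrl library of the same fraction, and *Nptx1* is lower in somas, while the triangles of replicate 2 lie highest among the Ctrl libraries for 8 of the 10 genes.

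After MG132, 4 of the 10 genes were called higher in somas (*Dusp1*, *Arc*, *Nptx2* and *Rheb*) and 3 in neurites (*Dusp1*, *Arc* and *Rheb*), and 0 were called lower in either. A call needed an edgeR quasi-likelihood p, adjusted over all 14185 genes, under 0.01 and a change above 1.7-fold. Among all tested genes 9.00% were called higher and 5.58% lower in somas, and 9.25% and 5.44% in neurites. The median log2 fold change of the 10 genes was 0.67 in somas and 0.42 in neurites, beside -0.07 and -0.16 over all tested genes. On total counts the median over all genes in neurites was -0.30, and the calls there were 481 higher and 538 lower in place of 1312 and 772. With the replicate number as a block, *Homer1* was also called higher and *Nptx1* lower in somas, and *Nptx2* higher and *Nptx1* lower in neurites, which made 5 higher and 1 lower in somas and 4 higher and 1 lower in neurites. In that fit 11.7% of all tested genes were called higher and 9.76% lower in somas, and 11.8% and 9.75% in neurites. The 3 libraries did not overlap between MG132 and Ctrl for 6 genes in somas, 5 higher and 1 lower, where this held for 23.2% of all tested genes in the higher and 22.7% in the lower direction. In neurites it held for 4 genes in the higher direction and 1 in the lower, beside 20.4% of all tested genes in each.

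*Arc* encodes a protein that binds the endocytic machinery and removes AMPA-type glutamate receptors from synapses, and its mRNA is a classic dendritic transcript (Entrez 11838, chr15:74669081-74672570 of GRCm38, minus strand). It measured 6.91, 17.6 and 3.20 CPM in Ctrl somas replicates 1, 2 and 3 and 98.7, 32.7 and 61.5 CPM in MG132 somas. In neurites it measured 2.12, 10.1 and 3.53 CPM in Ctrl and 55.2, 16.0 and 32.3 CPM with MG132. The groups did not overlap in either fraction, but replicate 2 was the highest of the Ctrl libraries and the lowest of the MG132 libraries in both. *Arc* rose 7.01-fold in somas (log2 fold change 2.81 ± 0.63 SE, edgeR adjusted p = 0.00437) and 6.09-fold in neurites (2.61 ± 0.66, adjusted p = 0.00872). Within replicates 1, 2 and 3 the ratio of MG132 to Ctrl was 14.3, 1.86 and 19.2 in somas and 26.1, 1.59 and 9.15 in neurites. The somas call was lost without Ctrl somas replicate 1 (log2 fold change 2.65, adjusted p = 0.0236), Ctrl somas replicate 3 (2.42, 0.0191) or MG132 somas replicate 1 (2.36, 0.0197). The neurites call was lost without Ctrl neurites replicate 1 (2.28, 0.0364) or 3 (2.50, 0.0302), or MG132 neurites replicate 1 (2.10, 0.0378) or 3 (2.80, 0.0135).

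*Homer1* encodes scaffold proteins that join group I metabotropic glutamate receptors to the postsynaptic density, and a short form, Homer1a, which is made with activity and loosens that link (Entrez 26556, chr13:93303757-93405129, plus strand). The counts merge both forms. It measured 44.7, 66.0 and 41.1 CPM in Ctrl somas, against 131.7, 89.8 and 73.3 CPM in MG132 somas, with no overlap. In neurites it measured 40.7, 57.0 and 30.4 CPM in Ctrl and 50.9, 49.5 and 47.9 CPM with MG132, and here the MG132 libraries lay inside the Ctrl range. The log2 fold change was 0.96 ± 0.26 in somas, where the adjusted p of 0.0136 missed the threshold. It became 0.000453 with the replicate block, 0.00176 with no count filter, 0.00872 by DESeq2 and 0.00944 without MG132 somas replicate 3 (log2 fold change 1.14). Without Ctrl somas replicate 2 it was 0.0106, still short of a call. Several other alternatives raised the adjusted p. It was 0.0858 without MG132 somas replicate 1 (log2 fold change 0.68), 0.0582 and 0.0620 without Ctrl somas replicate 1 or 3, and 0.0693 on total counts. In neurites the log2 fold change was 0.20 ± 0.26 (adjusted p = 0.602, and 0.384 with the block).

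The neuronal pentraxins *Nptx1* and *Nptx2* encode secreted proteins that cluster AMPA receptors at synapses. *Nptx2*, also known as Narp, is the member known for its induction by activity. *Nptx2* (Entrez 53324, chr5:144545887-144557478, plus strand) measured 11.1, 23.4 and 13.0 CPM in Ctrl somas, against 77.4, 38.1 and 37.4 CPM in MG132 somas. In neurites it measured 4.50, 7.94 and 7.40 CPM in Ctrl and 22.8, 13.1 and 15.8 CPM with MG132. Every MG132 library was above every Ctrl library of its fraction. *Nptx2* rose 3.23-fold in somas (log2 fold change 1.69 ± 0.36, adjusted p = 0.00304), and the value in neurites was 1.34 ± 0.38, with an adjusted p of 0.0175 that became 0.00531 with the replicate block and 0.00616 by DESeq2. The call in somas was lost without Ctrl somas replicate 1 (1.51, adjusted p = 0.0203), Ctrl somas replicate 3 (1.59, 0.0180) or MG132 somas replicate 1 (1.25, 0.0209).

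*Nptx1* (Entrez 18164, chr11:119538719-119547820, minus strand) had values in the opposite direction. It measured 134.2, 88.6 and 137.8 CPM in Ctrl somas, against 70.2, 35.9 and 51.6 CPM in MG132 somas, and in neurites 72, 31.8 and 24.9 CPM in Ctrl and 33.1, 15.3 and 24.0 CPM with MG132. The somas groups did not overlap, whereas the highest MG132 neurites library lay above the lower 2 Ctrl neurites libraries. The log2 fold change was -1.19 ± 0.37 in somas, where the adjusted p was 0.0267 and became 5.19e-05 with the replicate block and 0.00609 by DESeq2. Without Ctrl somas replicate 1 or 3 or MG132 somas replicate 2 or 3 the adjusted p was 0.0726 to 0.0990. In neurites the log2 fold change was -0.84 ± 0.38, with an adjusted p of 0.120 that became 0.00539 with the block. It was -0.26 (adjusted p = 0.627) without Ctrl neurites replicate 1, the library at 72 CPM. Within replicates *Nptx1* was lower with MG132 in 3 of 3 pairs in each fraction, at 0.374 to 0.523 of Ctrl in somas and 0.460 to 0.963 in neurites.

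*Dusp1* encodes a nuclear phosphatase that switches off MAP kinases and is itself an immediate early gene (Entrez 19252, chr17:26505591-26508472, minus strand). It measured 2.69, 6.43 and 0.993 CPM in Ctrl somas, against 20.5, 34.7 and 27.8 CPM in MG132 somas. In neurites it measured 1.06, 4.92 and 1.51 CPM in Ctrl and 12.5, 21.1 and 15.4 CPM with MG132. The groups were far apart in both fractions, although the Ctrl values rest on 4 to 58 counts. A GENCODE exon of *Ergic1*, on the opposite strand, overlaps exons of *Dusp1*. Of the 75-base windows of the longest *Dusp1* transcript, 0% occur in another gene. That transcript has 2313 bases and the merged exons 3311, so the overlap may lie in the part that was not searched. *Dusp1* had the largest increase of the 10 genes in somas, 8.21-fold (log2 fold change 3.04 ± 0.56, adjusted p = 0.00119), and rose 6.08-fold in neurites (2.60 ± 0.58, adjusted p = 0.00402). The ratio within replicates was 5.40 to 28.0 in somas, and 4.29 to 11.9 in neurites. The neurites call was lost without Ctrl neurites replicate 1 (log2 fold change 2.31, adjusted p = 0.0171) or 3 (2.44, 0.0141) or MG132 neurites replicate 2 (2.37, 0.0164).

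*Rheb* encodes the small GTPase that activates the growth-promoting kinase complex mTORC1, and it was first known as an activity-induced gene of the brain (Entrez 19744, chr5:24802823-24842361, minus strand). It measured 54.3, 38.8 and 35.3 CPM in Ctrl somas, against 95.4, 86.7 and 104.8 CPM in MG132 somas. In neurites it measured 73.6, 60.6 and 58.0 CPM in Ctrl and 152.6, 152.9 and 152.2 CPM with MG132. By the ratio of the highest to the lowest library its replicates were the closest of the 10 genes in each group, and at this scaling the 4 groups lay in ascending order without overlap, from Ctrl somas through Ctrl neurites and MG132 somas to MG132 neurites. *Rheb* rose 2.23-fold in somas (log2 fold change 1.16 ± 0.18, adjusted p = 0.000354) and 2.39-fold in neurites (1.25 ± 0.18, adjusted p = 0.000167). Leaving out any single library of the groups compared kept both calls. With libraries scaled to their total counts the values were 1.12 in somas (adjusted p = 0.0164) and 1.12 in neurites (0.0152), and the calls were lost.

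**Figure D2:**
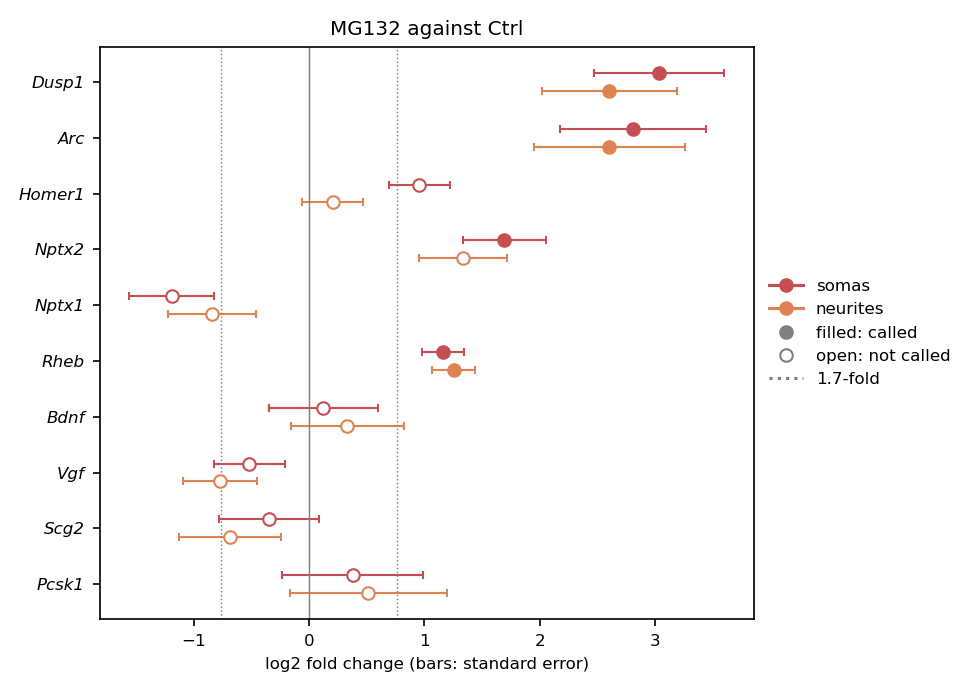
Log2 fold change of MG132 against Ctrl for the 10 genes in somas and neurites, with bars for 1 standard error, filled points for calls and dotted lines at 1.7-fold in each direction. *Dusp1* and *Arc* lie farthest to the right in both fractions, *Rheb* has the shortest bars, and *Bdnf*, *Vgf*, *Scg2* and *Pcsk1* have open points in both.

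The remaining members, *Bdnf*, *Vgf*, *Scg2* and *Pcsk1*, were not called in either fraction. *Bdnf* encodes brain-derived neurotrophic factor, which acts through the receptor TrkB (Entrez 12064, chr2:109674700-109727043, plus strand). It measured 51.5, 153.2 and 37.6 CPM in Ctrl somas, 115.5, 87.8 and 60.6 CPM after MG132 in somas, 26.2, 60.9 and 19.0 CPM in Ctrl neurites and 54.3, 49.0 and 32.0 CPM in MG132 neurites. The groups overlapped in both fractions. The log2 fold change was 0.12 ± 0.47 in somas (adjusted p = 0.876) and 0.33 ± 0.49 in neurites (0.649). Replicate 2 went one way and the others the opposite way: the ratio of MG132 to Ctrl was 2.25, 0.574 and 1.61 in somas and 2.07, 0.804 and 1.68 in neurites. An antisense gene, *Gm45346*, overlaps exons of *Bdnf*, and 10.1% of the 75-base windows of the longest *Bdnf* transcript also occur in it. The counting was run at default settings, which do not use strand, so the reads of the pair cannot be told apart.

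*Vgf* encodes a granule protein that is cut into several neuropeptides (Entrez 381677, chr5:137025301-137033351, plus strand). It measured 64.6, 167.0 and 81.4 CPM in Ctrl somas, 87.4, 69.2 and 61.7 CPM after MG132 in somas, 37.6, 56.4 and 33.5 CPM in Ctrl neurites and 31.3, 22.6 and 21.7 CPM in MG132 neurites. Only the neurites groups did not overlap. The log2 fold change was -0.52 ± 0.31 in somas (adjusted p = 0.233) and -0.77 ± 0.32 in neurites (0.0888, and 0.0213 with the block). *Scg2* (Entrez 20254, chr1:79434366-79440026, minus strand) measured 153.2, 503.6 and 263.1 CPM in Ctrl somas, 267.0, 283.8 and 172.4 CPM after MG132 in somas, 81.2, 231.5 and 93.0 CPM in Ctrl neurites and 123.2, 75.9 and 55.4 CPM in MG132 neurites. Its groups overlapped in both fractions, with log2 fold changes of -0.35 ± 0.44 (adjusted p = 0.597) and -0.68 ± 0.44 (0.274). Without the Ctrl library of replicate 2 these were 0.22 and -0.0416. *Pcsk1* encodes the prohormone convertase that cuts such precursors inside granules (Entrez 18548, chr13:75089420-75134861, plus strand). It measured 8.29, 19.9 and 8.05 CPM in Ctrl somas, 26.6, 10.3 and 9.88 CPM after MG132 in somas, 0.265, 6.15 and 2.52 CPM in Ctrl neurites and 7.07, 4.20 and 2.84 CPM in MG132 neurites. The groups overlapped, and the log2 fold changes were 0.38 ± 0.61 (adjusted p = 0.693) and 0.52 ± 0.68 (0.613). The neurites value was 1.59 without Ctrl neurites replicate 2 and 0.0627 without Ctrl neurites replicate 1. The SEs of these genes leave room for a change of either sign in somas.

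The replicates did not contribute equally. The Ctrl libraries of replicate 2 were the highest of their group for 8 of the 10 genes, all but *Nptx1* and *Rheb*, in both fractions. Over all tested genes replicate 2 was the highest Ctrl library for 35.4% in somas, 31.3% in neurites and 14.4% in both. The same held in both fractions for 8 of 13 tested immediate early transcription factors. Among MG132 libraries, replicate 1 was the highest for all but *Scg2*, *Dusp1* and *Rheb* in somas, and all but *Dusp1* and *Rheb* in neurites. In each group the neuronal marker sum was highest in replicate 1, and the oligodendrocyte lineage sum was lowest in replicate 2 and highest in replicate 3. In Ctrl somas the latter was 2913, 1390 and 5952 CPM in replicates 1, 2 and 3. The part of such differences in these values was not tested. Without replicate 2 in every group, a choice made after these values were seen, *Arc* had a log2 fold change of 3.96 in somas (adjusted p = 0.000863) and 3.90 in neurites (0.00105), *Dusp1* 3.66 (0.00181) and 3.40 (0.00316), and *Nptx2* 2.25 in somas (0.00546). *Bdnf* had 0.98 in somas (adjusted p = 0.0927) and 0.94 in neurites (0.115), and *Rheb* 1.16 in somas (0.0118) and 1.21 in neurites (0.00889). The calls were then 3 in each fraction, all higher, with *Rheb* lost in somas. Leaving out the Ctrl library of replicate 2 alone gave *Arc* 3.65 in somas and 3.54 in neurites, and *Dusp1* 3.84 and 3.64.

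**Figure D3:**
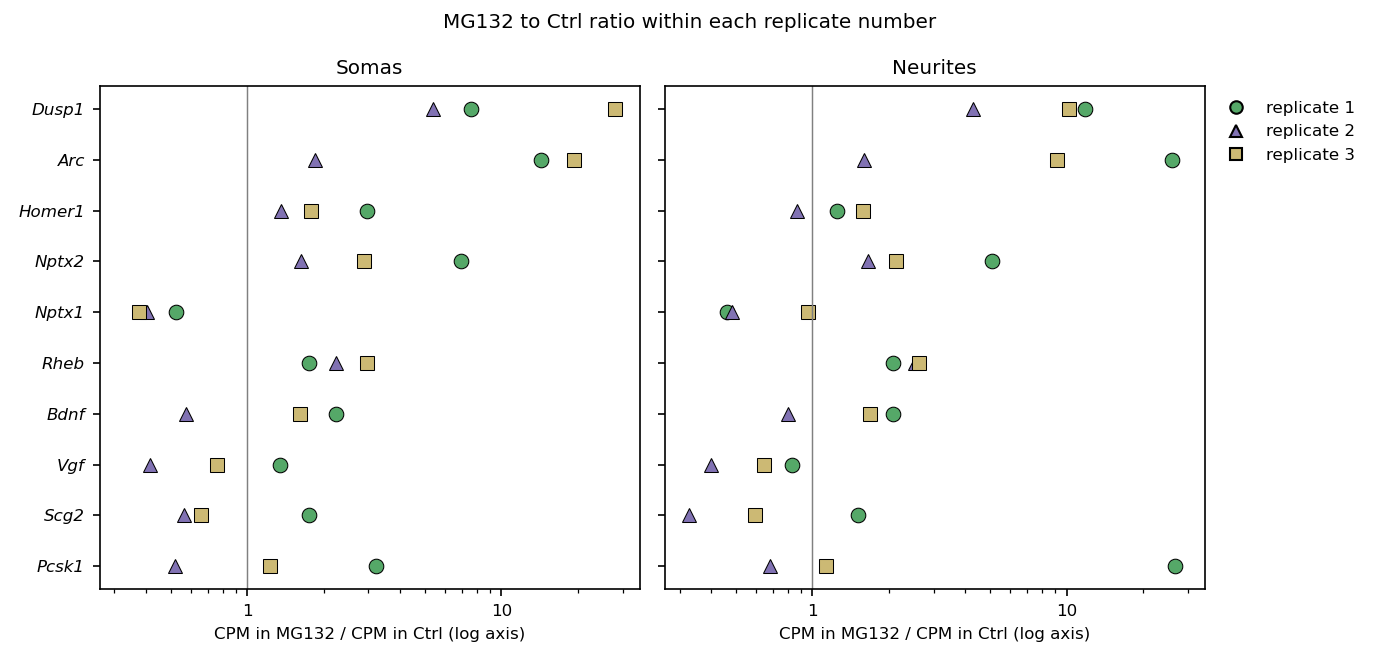
Ratio of CPM in MG132 to CPM in Ctrl (log axis) within each replicate number for the 10 genes, in somas (left) and neurites (right), with a line at 1. The triangles of replicate 2 lie below 1 for *Bdnf*, *Vgf*, *Scg2* and *Pcsk1* in both panels, and at 1.86 and 1.59 for *Arc*, where the other ratios reach 26.1. The *Pcsk1* ratio of 26.7 in neurites rests on 1 count in the Ctrl library.

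Whether the response to MG132 differed between the fractions was tested as an interaction, the log2 fold change in neurites minus that in somas. The adjusted p was under 0.01 for 0 of the 10 genes and for 0% of all tested genes in edgeR. Over all genes 1000 had an unadjusted p under 0.05, 0 of the 10 among them, while DESeq2 called 19 genes in the higher and 6 in the lower direction and the fit with the replicate block 14 and 7, again with 0 of the 10. *Homer1* had the largest difference, -0.75 ± 0.37 (unadjusted p = 0.0600, adjusted p = 0.724). For *Arc* it was -0.20 ± 0.88, for *Dusp1* -0.43 ± 0.79, for *Nptx2* -0.36 ± 0.52, for *Nptx1* 0.35 ± 0.53 and for *Rheb* 0.10 ± 0.26. For *Bdnf*, *Vgf*, *Scg2* and *Pcsk1* it was 0.21 ± 0.68, -0.25 ± 0.44, -0.33 ± 0.62 and 0.14 ± 0.91. The SEs, 0.26 to 0.91, bound how small a difference in response these libraries can show, so these values do not show that the fractions responded alike.

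The distribution between the fractions was similar in direction for most of the genes. In Ctrl neurons 9 of the 10 had a lower scaled level in neurites than in somas, *Rheb* was the exception, and 0 were called. In this comparison 7 (6 lower, and *Rheb* higher) had an unadjusted p under 0.05 in either direction, beside 27.6% of all tested genes. DESeq2 called 2 lower (*Vgf* and *Nptx1*) and 0 higher, beside 2.43% and 5.31% of the 20590 genes to which it gave a p, and the fit with the replicate block called 4 lower (*Bdnf*, *Vgf*, *Scg2* and *Nptx1*). Among all tested genes 6.15% were called higher in Ctrl neurites and 1.28% lower, and 8.59% and 3.87% with the block. In MG132 neurons *Vgf* and *Nptx2* were called lower in neurites, and with the block *Bdnf*, *Homer1*, *Scg2* and *Nptx1* were as well. Of all tested genes 6.92% were called higher and 2.08% lower there, and 9.38% and 5.33% with the block. The median log2 ratio of the 10 genes was -1.17 in Ctrl and -1.07 in MG132 neurons, beside -0.04 and -0.08 over all tested genes.

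These ratios compare shares of each library's RNA. The TMM factors were 1.18 to 1.44 in the somas libraries and 0.567 to 0.999 in the neurites libraries. The astrocyte markers summed to a level several times higher in neurites than in somas, with no overlap in either treatment, while the neuronal markers overlapped. With total counts in place of TMM factors the median over all genes moved to -0.70 in Ctrl neurons and -0.86 with MG132, and the genes called lower became 6 and 7 of the 10. Over all tested genes the calls then were 179 higher and 938 lower in Ctrl and 138 and 2118 in MG132 neurons, against 872 and 181, and 982 and 295, with TMM factors.

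*Nptx1* had a log2 ratio of -1.50 ± 0.38 in Ctrl neurons (adjusted p = 0.0137, and 4.36e-06 with the block) and -1.15 ± 0.38 in MG132 neurons (0.0476, and 0.000257 with the block). Its call appeared in Ctrl without Ctrl neurites replicate 1 (-2.08, adjusted p = 0.00117). *Nptx2* had -1.23 ± 0.38 in Ctrl (0.0403) and was 2.99-fold lower in neurites of MG132 neurons (-1.58 ± 0.36, adjusted p = 0.00701). *Vgf* had -1.29 ± 0.32 in Ctrl (0.0121, and 0.000343 with the block) and was 2.91-fold lower in neurites of MG132 neurons (-1.54 ± 0.32, adjusted p = 0.00382). In Ctrl the *Vgf* call appeared without Ctrl somas replicate 1 (-1.60, 0.00449) or Ctrl neurites replicate 2 (-1.55, 0.00947). In MG132 neurons the calls of *Vgf* and *Nptx2* were both lost without MG132 somas replicate 1 (-1.32 with adjusted p = 0.0226 and -1.08 with 0.0624), MG132 neurites replicate 2 (-1.47 with 0.0213 and -1.41 with 0.0403) or MG132 neurites replicate 3 (-1.40 with 0.0248 and -1.48 with 0.0382).

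*Scg2* had a log2 ratio of -1.17 ± 0.44 in Ctrl (adjusted p = 0.0911, and 0.00304 with the block) and -1.51 ± 0.45 in MG132 neurons (0.0292, and 0.000435 with the block). *Bdnf* had -1.17 ± 0.49 (0.127, and 0.00350 with the block) and -0.96 ± 0.48 (0.190, and 0.00624 with the block). The Ctrl values rested on replicate 2: without its somas library the ratio was -0.40 for *Bdnf* and -0.69 for *Scg2*, and without its neurites library -1.84 and -1.81. In each replicate the neurites held less *Bdnf* than the somas, at 0.398 to 0.509 of the somas level with DMSO and 0.470 to 0.558 with MG132. *Pcsk1* had the lowest ratio and the widest error, -1.89 ± 0.67 in Ctrl (0.0711) and -1.76 ± 0.65 in MG132 neurons (0.0768). With 1 library left out it ranged from -2.96 (without Ctrl neurites replicate 2) to -1.42 in Ctrl and from -2.11 to -1.05 (without MG132 somas replicate 1) in MG132 neurons. *Homer1* had -0.24 ± 0.26 in Ctrl (0.619) and -0.99 ± 0.26 in MG132 neurons (0.0165, and 0.000626 with the block). *Arc* had -0.72 ± 0.65 (0.527) and -0.92 ± 0.59 (0.318), and *Dusp1* -0.31 ± 0.59 (0.8) and -0.74 ± 0.51 (0.360).

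*Rheb* had the only positive ratios, 0.58 ± 0.18 in Ctrl (adjusted p = 0.0454) and 0.67 ± 0.18 in MG132 neurons (0.0175). With the replicate block the adjusted p was 0.00934 and 0.00208, but the fold stayed under 1.7. Its neurites libraries were above its somas libraries in both treatments, and within replicates the ratio was 1.35 to 1.64 in Ctrl and 1.45 to 1.76 in MG132 neurons. With total counts the log2 ratio turned to -0.13 and -0.12, which is still above the median of all genes under that scaling. Without overlap, *Rheb* was the 1 gene of the 10 higher in neurites in each treatment, where this held for 17.8% of all tested genes in Ctrl and 18.9% in MG132 neurons. In the lower direction 4 genes did not overlap in Ctrl (*Vgf*, *Nptx1*, *Nptx2* and *Pcsk1*) and 7 in MG132 neurons (these 4 with *Bdnf*, *Homer1* and *Scg2*), beside 15.9% and 17.9% of all tested genes.

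**Figure D4:**
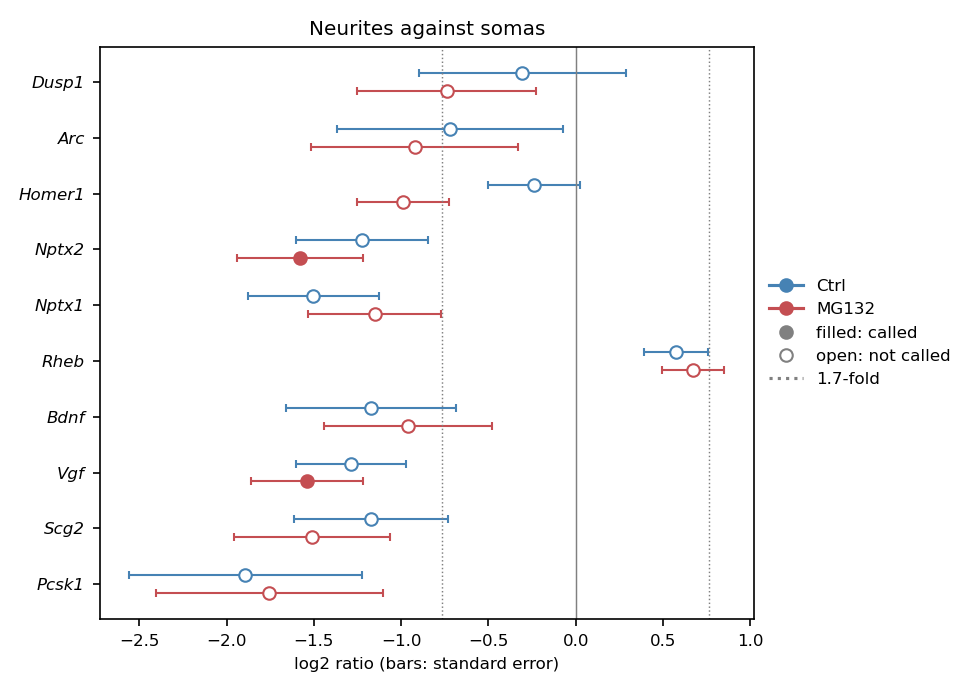
Log2 ratio of neurites to somas for the 10 genes in Ctrl and MG132 neurons, with bars for 1 standard error, filled points for calls and dotted lines at 1.7-fold. *Rheb* is the only gene to the right of 0, and *Vgf* and *Nptx2* in MG132 neurons are the only filled points. On total counts *Rheb* would lie at -0.13 and -0.12.

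The partners of each gene were read from lists chosen by function. Beside the lists below, 9.00% of all tested genes were called higher and 5.58% lower in somas, and 9.25% and 5.44% in neurites. With the replicate block these shares were 11.7% and 9.76% in somas, and 11.8% and 9.75% in neurites. Around *Dusp1*, 7 of 8 listed MAP kinase phosphatases were tested. Of these, 4 rose in somas (*Dusp10*, log2 fold change 2.58 ± 0.51, *Dusp8* 1.68 ± 0.43, *Dusp4* 1.5 ± 0.31 and *Dusp16* 1.0 ± 0.22) and 2 in neurites (*Dusp10* 2.10 ± 0.52 and *Dusp16* 0.95 ± 0.22), and 0 fell, beside the 9.00% and 9.25% of all tested genes called higher. The 4 calls in somas became 1 without Ctrl somas replicate 1 or 3 or MG132 somas replicate 3, and 2 without MG132 somas replicate 2. The 2 in neurites became 0 without Ctrl neurites replicate 2, and 1 without any 1 MG132 neurites library. The median of the list was 1.5 in somas and 0.95 in neurites, and with the block 5 and 4 rose. Around *Rheb*, 12 genes of the mTORC1 pathway were tested, and 4 rose in somas and 2 in neurites. The 4 became 2 without Ctrl somas replicate 1 or MG132 somas replicate 3, and 3 without any other 1 somas library. The 2 became 3 without MG132 neurites replicate 1 or 3. *Sesn2*, a stress-induced inhibitor of mTORC1, rose by 3.33 ± 0.25 in somas and 3.43 ± 0.26 in neurites, and *Eif4ebp1*, a repressor of translation that mTORC1 inactivates, by 2.68 ± 0.42 and 2.05 ± 0.40. *Tsc1*, part of the complex that turns *Rheb* off, rose by 0.91 ± 0.18 in somas, and *Rptor*, an mTORC1 subunit, by 0.91 ± 0.23. The *Rptor* call was lost without any 1 somas library, on total counts and with DESeq2 size factors in edgeR. The *Tsc1* call was lost without Ctrl somas replicate 1 or MG132 somas replicate 3, and on total counts. The median was 0.37 and 0.30, and with the block 4 rose in somas, and 3 rose and 1 fell in neurites.

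Around *Bdnf*, 4 of 7 listed receptors and relatives were tested, where 5.58% of all tested genes were called lower in somas and 5.44% in neurites. *Ntrk2*, which encodes TrkB, fell in somas (log2 fold change -0.84 ± 0.15), and *Sort1*, a sorting receptor for pro-BDNF, fell in both somas (-1.14 ± 0.16) and neurites (-1.0 ± 0.16). The median of this list was -0.25 in somas and -0.05 in neurites. Around the pentraxins, 4 AMPA receptor subunits were tested, and *Gria3* fell in somas (-0.82 ± 0.18), a call lost without Ctrl somas replicate 1 or any 1 MG132 somas library. Their median was -0.77 in somas and -0.44 in neurites, 0 were called in neurites, and 2 fell in somas with the block. For granule and prohormone-processing genes, 1 of 10 fell in somas (*Pam*, which amidates peptides, -0.86 ± 0.20), beside 5.58% of all tested genes, and 0 were called in neurites. The medians were -0.51 and -0.37, and 2 genes were called lower in each fraction with the block and at an adjusted p under 0.05. The *Pam* call was lost without Ctrl somas replicate 2 or any 1 MG132 somas library. It was also lost on total counts and with only the compared libraries. Of 7 Homer relatives and group I receptors 0 were called in either fraction, with medians of -0.43 and -0.95. With the block 1 rose and 1 fell in somas and 4 fell in neurites.

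Among 26 tested genes of other activity-regulated effectors, 8 rose and 0 fell in somas, and 7 rose and 1 fell in neurites (5 rose in somas without Ctrl somas replicate 3), beside the shares of 9.00% and 9.25% given above for all genes. *Gadd45g* and *Gadd45b*, which act in stress signalling and DNA demethylation, rose by 3.72 ± 0.30 and 3.85 ± 0.41 in somas and by 3.61 ± 0.30 and 5.18 ± 0.46 in neurites on the log2 scale. *Hbegf*, a growth factor precursor, rose by 3.05 ± 0.32 and 2.82 ± 0.32, and *Plk2*, a kinase of homeostatic synaptic scaling, by 1.91 ± 0.23 and 2.05 ± 0.24. The median of this list was 0.97 in somas and 0.78 in neurites. With the block 12 rose and 3 fell in somas, and 12 rose and 2 fell in neurites. In that fit 11.7% of all tested genes were called higher and 9.76% lower in somas, and 11.8% and 9.75% in neurites. Of 13 immediate early transcription factors, 4 rose in somas and 3 in neurites and 0 fell, with medians of 1.01 and 1.22. *Jun* rose by 2.07 ± 0.19 in somas and 1.91 ± 0.19 in neurites, *Fosl2* by 2.16 ± 0.29 and 2.41 ± 0.29, and *Egr1* by 1.79 ± 0.31 and 2.17 ± 0.32. *Fosl1* had 0 counts in all Ctrl libraries and 3.96 ± 0.689 CPM in MG132 somas, at least 13.7-fold higher when set against 3 counts per Ctrl library. Its call in somas was lost without any 1 somas library. In MG132 neurites *Fosl1* had 1.46 ± 1.81 CPM and was not called. Its mean was 2.67-fold the level of 3 counts per Ctrl library, but the SD exceeded the mean, so this is no lower bound. With the block 6 rose in somas and 4 in neurites. The neuropeptide genes had values of the opposite sign: of 6 tested, 1 fell in both fractions (*Adcyap1*, which encodes PACAP, -2.99 ± 0.45 and -2.40 ± 0.47), and the medians were -1.44 and -1.09. Without replicate 2 in every group, 0 of the MAP kinase phosphatases and 0 of the neuropeptide genes were called in neurites. Of all genes named from these lists, 0 turned sign under any alternative, and *Sesn2*, *Gadd45b*, *Gadd45g*, *Hbegf*, *Plk2*, *Jun*, *Fosl2* and *Egr1* were called in both fractions under each alternative in which they were tested, whereas each of the others lost a call under 1 or more.

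Across the 12 libraries the genes with the most similar log2 CPM differed between members. For *Rheb* they were *Orc2* (Pearson's r = 0.985), *Psmc5*, a proteasome subunit gene (0.978), and *Tfam* (0.977), out of 14184 genes compared. For *Vgf* the closest was *Scg2* (0.949), and for *Scg2* they were *Htr2c* (0.974) and *Vgf*. *Dusp1* was closest to *Nup50* (0.966), *Arc* to *Cramp1l* (0.946), *Nptx2* to *Lrig2* (0.970), *Nptx1* to *Epha4* (0.967), *Homer1* to *Sh3rf1* (0.938), *Bdnf* to *Alms1* (0.937) and *Pcsk1* to *Kit* (0.933). These values describe 12 libraries that share the fraction, the treatment and the depth, and they are the highest of many.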

How the data were processed

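The deposited values were whole-number read counts per gene in 12 libraries. Per the labels and the study's methods, the authors made these counts from polyA-selected RNA by trimming with Trimmomatic 0.38.0, aligning single-end reads to mm10 with STAR and counting with featureCounts 2.0.1 at default settings, without normalization or filtering. These defaults do not use strand and do not count reads with several alignments. Symbols and coordinates came from RefSeq and exon lengths from GENCODE, and 25275 of 27179 identifiers (93.0%) had a symbol. None of the 66 pairs of libraries held identical counts.

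The counts were analysed with edgeR 4.0.16 in R 4.3.3: filterByExpr by group (14185 genes kept), scaling by TMM, and a single quasi-likelihood fit of 4 group means over all 12 libraries, with Benjamini-Hochberg adjustment over all tested genes. The study's methods used DESeq2, which was an alternative here (1.42.0). Genes were called at an adjusted p under 0.01 and a linear change above 1.7-fold, except for the interaction, which had no fold threshold. CPM values were scaled with the TMM factors, and no pseudocount was added to them. The SE was obtained from the size of the log2 fold change and edgeR's F statistic, as their quotient after taking the root of F. Same-numbered libraries deviated together from their group means, with correlations of 0.165 to 0.248 for the pairs of groups compared, so the fit with the replicate number as a block is given where it changed a call. The model was tested on simulated data beforehand. The genes and lists were chosen with earlier results of these data known, so a list's direction is not independent evidence. All 10 genes are named in every comparison. From each other list, up to 4 genes called after MG132 are named, by smallest adjusted p, and from the likeness ranking the nearest genes are named. The alternatives were another scaling, count filter, tool, threshold or set of libraries, the replicate block, and each library left out in turn. Protein sequences were not used here.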

Additional observations from a re-analysis of the deposited data

How the results depend on the processing

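Calls among the 10 genes moved with the settings as follows. In somas, 4 calls became 6 at an adjusted p under 0.05, with no count filter, with the replicate block and by DESeq2, 5 with only the compared libraries, 3 on total counts and without replicate number 2 in every group, 2 with a log2 threshold of 1.7 and with at least 10 counts in every library, and 2 to 5 when 1 library was left out (2 without Ctrl somas replicate 1 or 3 or MG132 somas replicate 1). The 6 were 5 higher and 1 lower in each case, and the 5 with only the compared libraries 4 higher and 1 lower. Over all genes at an adjusted p under 0.05, 2203 of 14185 were called higher and 1694 lower in somas. With no count filter these were 1454 and 1021 of 20595, and with at least 10 counts 1044 and 852 of 9597. In neurites, 3 became 5 with the block, 4 at an adjusted p under 0.05, with no count filter and by DESeq2, 2 on total counts and with the log2 threshold, 1 with the filter of at least 10 counts, and 1 to 3 with 1 library left out (1 without Ctrl neurites replicate 1 or 3). All were higher, save 1 of the 5 with the block. Over all genes at an adjusted p under 0.05, 2085 of 14185 were called higher and 1738 lower in neurites. With no count filter these were 1835 and 809 of 20595, and with at least 10 counts 1091 and 917 of 9597. Between fractions in Ctrl neurons, 0 became 4 at an adjusted p under 0.05, 6 on total counts, 6 with no count filter, 2 with at least 10 counts, 4 with the block, 2 with DESeq2 and 0 to 1 with 1 library left out. The 4 at an adjusted p under 0.05 were *Vgf*, *Nptx1* and *Nptx2*, lower in neurites, and *Rheb*, higher. The calls in the other settings were all lower. Over all genes at an adjusted p under 0.05, 1452 of 14185 were called higher and 659 lower. With no count filter these were 902 and 450 of 20595, and with at least 10 counts 848 and 270 of 9597. In MG132 neurons, 2 became 6 at an adjusted p under 0.05, 0 with the log2 threshold, 7 on total counts, 5 with no count filter, 6 with the block, 3 with DESeq2 and with at least 10 counts, 1 with only the compared libraries, 0 without replicate number 2 in every group, and 0 to 2 with 1 library left out. All were lower in neurites, save *Rheb*, called higher at an adjusted p under 0.05. Over all genes at that level, 1615 of 14185 were called higher and 901 lower. With no count filter these were 1238 and 414 of 20595, and with at least 10 counts 908 and 387 of 9597. The filter of 10 counts removes members with low counts. The cause of the other shifts was not tested. The block changed no call other than those given in the report.

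Signs turned only for values that were not called. On total counts *Rheb* turned to -0.13 in Ctrl and -0.12 in MG132 neurons between fractions, and the interaction of *Pcsk1* to -0.0716. Without replicate number 2, MG132 against Ctrl turned to 0.0308 for *Vgf* and 0.0797 for *Scg2* in somas and to 0.0312 for *Scg2* in neurites, and the interaction of *Bdnf* to -0.0454. With 1 library left out, the log2 fold change in somas ranged from -0.20 to 0.99 for *Bdnf*, -0.65 to 0.22 for *Scg2* and -0.26 to 0.95 for *Pcsk1*. Between fractions in Ctrl it ranged from -1.66 to 0.0350 for *Arc* and -1.34 to 0.42 for *Dusp1*. The interaction ranged from -0.91 to 0.73 for *Arc*, -0.53 to 0.88 for *Bdnf*, -0.65 to 0.10 for *Vgf*, -0.77 to 0.30 for *Scg2*, -0.63 to 0.15 for *Nptx2*, -1.12 to 0.60 for *Dusp1*, -0.00916 to 0.34 for *Rheb* and -0.32 to 1.21 for *Pcsk1*. The depth limits *Dusp1* and *Pcsk1* most, with as few as 4 counts and 1 count in a Ctrl neurites library.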
